A study of Mus musculus with 6 samples.

Results

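Transcripts of 10 proteoglycan genes were followed through the cell types of the mouse aortic root and ascending aorta. They encode 8 small leucine-rich proteoglycans (Dcn, decorin; Bgn, biglycan; Lum, lumican; Fmod, fibromodulin; Ogn, osteoglycin or mimecan; Prelp, prolargin; Aspn, asporin; Podn, podocan) and 2 large aggregating proteoglycans (Vcan, versican; Acan, aggrecan). The genes were taken by symbol, and all 10 were among the 31055 features of the deposited matrix. Suspensions of live, sorted cells from 6 female mice of 16 weeks on a 129 background were sequenced separately, 4 of them labelled CTL (Tgfbr1+/+, and in 2 mice also Wnt2CRE and EGFP-L10a) and 2 labelled LDS (Tgfbr1M318R/+, a missense allele of a TGF-β receptor that models Loeys-Dietz syndrome, a disease of aortic aneurysm). EGFP-L10a is a conditional tracer allele, and Wnt2CRE, a recombinase under the Wnt2 promoter, was used in the study to mark cells of the cardiac neural crest (CNC). The cell barcodes end in a number from 1 to 6 that separates the libraries, but the numbers could not be paired with mice. LDS and CTL mice were therefore not compared, no p-values were computed, and values are stated library by library, or as a median with the lowest and highest library. The libraries are thus of mixed, unknown genotype.

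Small leucine-rich proteoglycans are secreted proteins with a curved core of leucine-rich repeats, by which many of them bind collagen fibrils and influence fibril growth. Decorin and biglycan carry chondroitin or dermatan sulfate chains and bind growth factors, TGF-β among them, and lumican and fibromodulin can carry keratan sulfate. Versican and aggrecan bind hyaluronan in complexes with link proteins and hold water with their many chondroitin sulfate chains. In the arterial wall they lie between the elastic lamellae made by vascular smooth muscle cells (VSMCs) and in the fibroblast-rich adventitia.

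Of 30716 barcodes, 24972 passed the limits of the study's methods, with 18218282 to 38105145 unique molecular identifiers (UMIs, each marking a captured transcript) per library and a median of 5572 to 9838 UMIs per cell. Clustering without the 10 genes and 58 related genes gave 13595 fibroblast-like, 10262 VSMC-like, 567 endothelial-like and 444 leukocyte-like cells, and 104 cells were left without a name. The summed level of 7 VSMC markers, Myh11 among them, had a median over libraries of 66449 CPM in the VSMC-like class against 1983 CPM in the fibroblast-like class. For 8 fibroblast markers, Pdgfra among them, the medians were 6277 CPM in the fibroblast-like class and 701 CPM in the VSMC-like class. CPM (counts per 1000000) is the share of a gene in all UMIs summed over the cells of a class in a library. UMIs mark 3' ends, so the values were not divided by transcript length. Library 6 had 10 endothelial-like cells and gave no value for that class, since at least 20 cells were asked for. Among the kept cells, 76 barcode sequences occurred in more than 1 library.

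The 10 genes lie at 7 places of the genome (mm10, GENCODE M21). Dcn (ENSMUSG00000019929, chromosome 10 from 97479609 to 97518143) and Lum (ENSMUSG00000036446, 97565128 to 97572703) are neighbours on the plus strand, 46985 bp apart. Aspn (ENSMUSG00000021388, chromosome 13 from 49544443 to 49567565) and Ogn (ENSMUSG00000021390, 49608046 to 49624501) lie 40481 bp apart with the related gene Omd between them, all 3 inside Cenpp, which runs on the other strand. Prelp (ENSMUSG00000041577, chromosome 1 from 133910304 to 133921414, minus strand) and Fmod (ENSMUSG00000041559, 134037254 to 134048277, plus strand) are 115840 bp apart. Bgn (ENSMUSG00000031375) is on chromosome X from 73483602 to 73495933, Podn (ENSMUSG00000028600) on chromosome 4 from 108014791 to 108096445, Vcan (ENSMUSG00000021614) on chromosome 13 from 89655312 to 89742509 and Acan (ENSMUSG00000030607) on chromosome 7 from 79053483 to 79115099. Podn overlaps Scp2 on the same strand, so reads in the shared stretch could belong to either.

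Promoter sequences from RefSeq (GRCm38.p6, the assembly of mm10) were found for 8 of the 10 genes, and not for Dcn and Lum. The 250 bases before the start site are shown 5' to 3' on the strand of the gene for both pairs of neighbours, because Aspn and Ogn had related levels over the cell groups and Fmod and Prelp had their highest level in the same fibroblast subcluster. Both strands were searched. Capitals mark TATAAA, the letters of the TATA box, on either strand in Aspn (chr13:49544193-49544442, plus strand) and Ogn (chr13:49607765-49608014, plus strand) and the GATA-factor motif AGATAA, searched because the study is about Gata4, in Fmod (chr1:134037004-134037253, plus strand). Prelp (chr1:133921402-133921651, minus strand) held neither.
Aspn: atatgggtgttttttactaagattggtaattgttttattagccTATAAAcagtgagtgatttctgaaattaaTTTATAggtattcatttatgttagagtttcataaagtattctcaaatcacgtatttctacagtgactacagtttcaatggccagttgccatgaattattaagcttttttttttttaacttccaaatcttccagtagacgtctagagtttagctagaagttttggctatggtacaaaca
Ogn: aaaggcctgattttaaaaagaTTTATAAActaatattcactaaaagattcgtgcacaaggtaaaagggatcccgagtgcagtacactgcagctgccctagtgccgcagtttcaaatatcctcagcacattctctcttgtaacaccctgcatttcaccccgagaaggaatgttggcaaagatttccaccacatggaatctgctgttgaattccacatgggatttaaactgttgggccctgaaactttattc
Fmod: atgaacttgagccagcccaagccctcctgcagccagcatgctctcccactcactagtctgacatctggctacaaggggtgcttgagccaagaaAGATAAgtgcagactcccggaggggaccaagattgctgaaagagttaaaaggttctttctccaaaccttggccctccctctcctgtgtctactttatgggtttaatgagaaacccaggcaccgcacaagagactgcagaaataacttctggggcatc
Prelp: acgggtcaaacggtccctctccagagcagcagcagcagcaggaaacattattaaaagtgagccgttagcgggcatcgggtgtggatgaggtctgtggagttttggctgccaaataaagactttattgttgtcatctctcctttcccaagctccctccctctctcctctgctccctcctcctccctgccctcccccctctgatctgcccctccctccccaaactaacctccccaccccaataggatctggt
TATAAA lay 207 and 178 bases before the start site of Aspn and within 229 bases in Ogn, where the matches on both strands overlap. It occurred in 2 of 9 windows of the 10 genes (Podn has 2 windows) and in 12.4% of 32817 windows of all genes. AGATAA was found in 1 of the 9 windows, 157 bases before the start site of Fmod, and in 9.99% of all windows. The CArG box, the motif of serum response factor, was in none of the 9 and in 1.47% of all windows. The promoters of Aspn (30.0% G and C) and Ogn (42.0%) lay below the median of all windows (52.4%), and those of Acan (74.4%) and the first Podn window (78.0%) above it.

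Transcripts of the 10 genes made up 2.57% of all UMIs of fibroblast-like cells (range over libraries 2.36% to 2.69%), 0.566% of those of VSMC-like cells (0.479% to 0.662%), 0.253% in endothelial-like and 0.129% in leukocyte-like cells. They fell into 3 patterns. Dcn, Lum, Fmod, Podn and Vcan were higher in fibroblast-like than in VSMC-like cells by at least 2-fold in each of the 6 libraries. Bgn, Ogn, Prelp and Aspn were abundant in both classes. Acan was the sole member with a higher level in VSMC-like cells in all 6 libraries. The 5 of 10 members at least 2-fold higher in fibroblast-like cells stand beside 10.3% of 8702 genes with at least 10 CPM in either class, and 0 of 10 met the opposite call, which 7.04% of genes met.

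**Figure D1:**
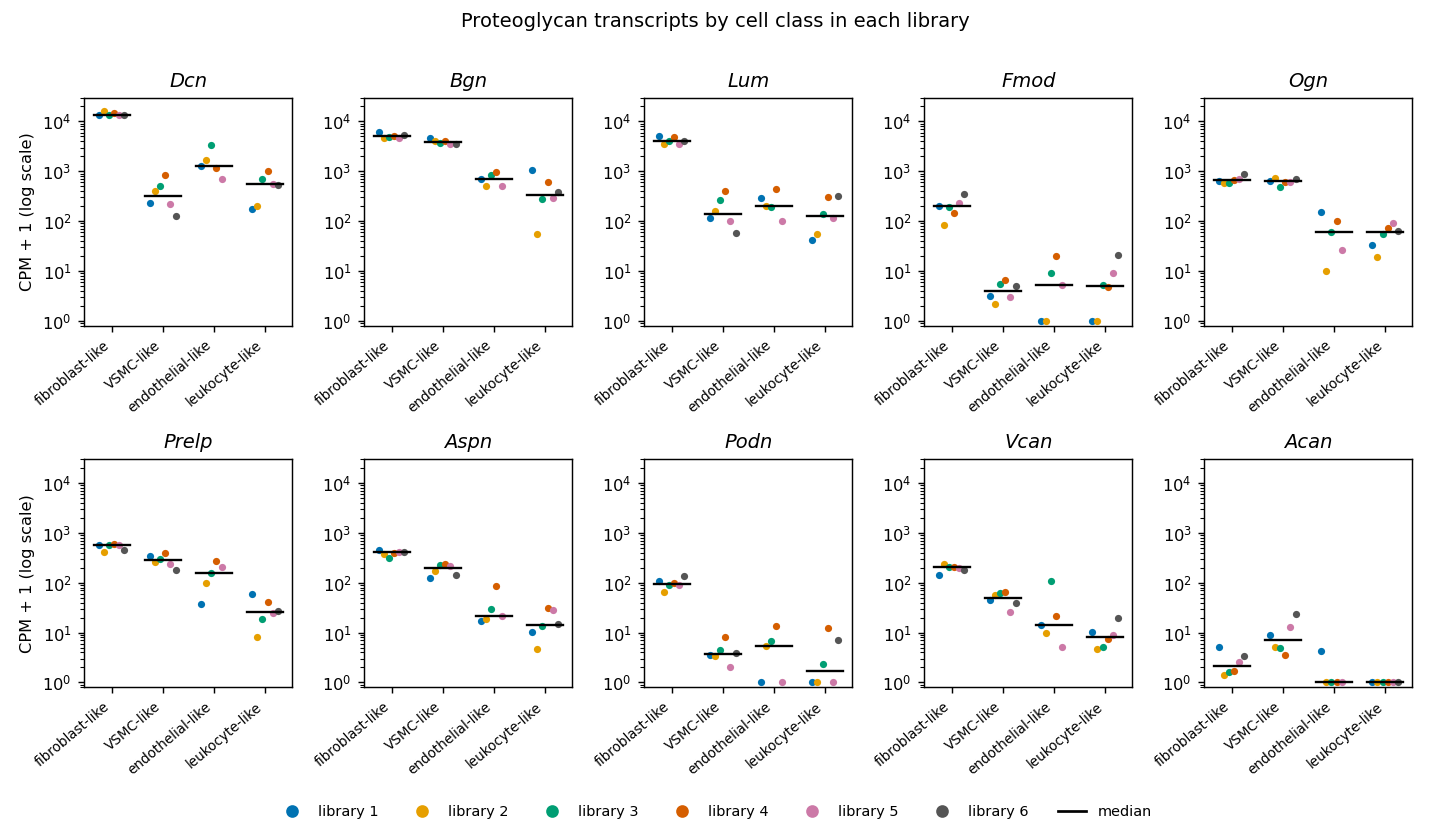
Level of each of the 10 transcripts by cell class. The vertical axis is CPM + 1 on a log scale, each point is a library and each line the median over libraries; the fibroblast-like and VSMC-like points of Dcn, Lum, Fmod, Podn and Vcan are far apart, while those of Bgn and Ogn lie side by side.

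Dcn was the fourth most abundant of all features in fibroblast-like cells, with 13334, 13654 and 15918 CPM as the lowest, median and highest library. In VSMC-like cells it had 129, 316 and 844 CPM. The groups did not overlap, and the median fold was 47.8 (17.4 to 107). The fibroblast values spanned 1.19-fold over the libraries, whereas the VSMC values spanned 6.56-fold, lowest in library 6 and highest in library 4. A VSMC subcluster led by fibroblast transcripts (V10, described below), with 78.4% of its cells marked as doublets, was 1.63% of the VSMC-like cells and held 41.1% of their Dcn UMIs, 27.1% of those of Lum, 34.5% of Fmod and 28.6% of Podn. Of its 167 cells, 87 were in library 4 and 5 in library 6. Without the subclusters led by another class, the median log2 ratio of fibroblast-like over VSMC-like cells was 6.09 for Dcn, 5.11 for Lum, 6.99 for Fmod and 5.56 for Podn, beside 5.58, 4.81, 6.25 and 5.01 with them.

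Lum, whose product binds collagen fibrils as decorin does, had 3475, 4063 and 5210 CPM in fibroblast-like and 57.7, 138 and 392 CPM in VSMC-like cells, a median fold of 28.1 (12.2 to 69.1). Fmod, which regulates early steps of fibril assembly, had 80.7, 197 and 351 CPM against 1.18, 3.04 and 5.52 CPM, a median fold of 76.1 (26.0 to 116). Podn had 63.4, 93.8 and 134 CPM against 1.08, 2.76 and 7.21 CPM, a median fold of 32.1 (13.4 to 78.4). For each of the 3 genes every fibroblast value lay above every VSMC value. Of all UMIs of Dcn, Lum, Fmod and Podn, between 96.0% and 98.2% were in fibroblast-like cells.

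Vcan, the versican core protein, differed less. It had 142, 202 and 240 CPM in fibroblast-like and 25.2, 49.6 and 63.9 CPM in VSMC-like cells, a median fold of 3.85 (3.24 to 7.77), and the groups did not overlap.

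Bgn, the closest relative of Dcn in this list, was spread over both classes. It had 4568, 4996 and 6264 CPM in fibroblast-like and 3518, 3822 and 4684 CPM in VSMC-like cells. The ranges overlapped, although within each library the fibroblast value was the higher (median log2 ratio 0.38, from 0.22 to 0.59). Bgn thus ranked 11th of the features in fibroblast-like and 23rd in VSMC-like cells, where Dcn ranked 454th.

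Ogn differed least. It had 581, 656 and 880 CPM in fibroblast-like and 483, 627 and 746 CPM in VSMC-like cells, and was higher in fibroblast-like cells in 4 of 6 libraries (median fold 1.14, from 0.782 to 1.27). Prelp, an anchor between basement membranes and collagen, had 422, 570 and 594 CPM against 178, 284 and 386 CPM, and reached 2-fold in 2 of 6 libraries (median fold 1.81). Aspn, which carries an aspartate stretch in place of the usual chains, had 314, 405 and 464 CPM against 121, 193 and 233 CPM, and reached 2-fold in 3 of 6 (median fold 2.08). For both genes every fibroblast value lay above every VSMC value, and the gap was narrowest for Prelp.

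Acan, the aggrecan core protein of cartilage, was sparse, with 818 UMIs in all cells, 85.6% of them in VSMC-like cells. Its VSMC levels were 7.89, 4.18, 3.90, 2.53, 11.8 and 23.1 CPM in libraries 1 to 6, and its fibroblast levels 4.05, 0.407, 0.619, 0.657, 1.56 and 2.36 CPM. The fibroblast value was lower in all 6 libraries, by at least 2-fold in 5, and the exception was library 1, with a fold of 0.515. Without library 1 Acan met the 2-fold call. It also met it in all 6 libraries without the subclusters led by markers of another class, described below, a choice made after these subclusters were seen. Acan was not among the 9 members with at least 10 CPM in either class.

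The level in leukocyte-like cells served as a reference. Whether it came from free RNA, doublets or the cells themselves was not tested, and 5.18% of these cells were marked as doublets. In VSMC-like cells, 6 of 10 members were at least 2-fold above that level in every library (Bgn, Ogn, Prelp, Aspn, Vcan and Acan), beside 14.2% of all genes with at least 10 CPM in either class. Of the 7 members with that minimum, 5 met the call. Vcan lost it with log-normalized counts and with cells of at least 3000 UMIs. Acan had no UMI in the leukocyte-like cells of any library, so its call compares sparse counts with 0. The 3 counts that 0 of 2916196 leukocyte UMIs allow are 1.03 CPM over all libraries together. Against that limit, the VSMC level of Acan summed over all libraries, 8.61 CPM, was at least 8.36-fold higher. Single libraries set a weaker limit, since 1 leukocyte UMI was 4.59 CPM in library 1 and 3.65 CPM in library 2. The VSMC levels of Acan there were 7.89 and 4.18 CPM. Dcn, Lum and Fmod met the 2-fold call in 1, 2 and 2 of 6 libraries and Podn in 4, but the leukocyte count of Podn was 0 in libraries 1, 2 and 5. Summed over all libraries, Podn had 3.10 CPM in VSMC-like and 4.80 CPM in leukocyte-like cells. Dcn had a median of 550 CPM in leukocyte-like cells, above its VSMC median of 316 CPM, and was at least 2-fold lower in VSMC-like cells in 2 libraries. Lum had 126 CPM and Fmod 3.98 CPM in leukocyte-like cells, beside 138 and 3.04 CPM in VSMC-like cells. In VSMC-like cells as a whole, the levels of Dcn, Lum, Fmod and Podn were thus not set apart from those in leukocyte-like cells.

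The mix of transcripts differed too. Per 100 UMIs of Dcn, fibroblast-like cells had 35.4 UMIs of Bgn, 29.8 of Lum, 4.69 of Ogn, 4.13 of Prelp and 1.46 of Fmod (medians over libraries). VSMC-like cells had 1315 UMIs of Bgn, 230 of Ogn and 87.9 of Prelp per 100 UMIs of Dcn, but 45.7 of Lum (39.95 to 52.0, above the 22.6 to 39.1 of fibroblast-like cells), 0.889 of Fmod and 0.773 of Podn (0.664 in fibroblast-like cells). In leukocyte-like cells these ratios were 56.6 for Bgn, 25.7 for Lum, 10.6 for Ogn and 4.08 for Prelp.

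The endothelial-like cells had 0 of 10 members at least 2-fold above leukocyte-like cells in all 5 libraries with a value, beside 11% of all genes. Prelp met it in 4 of the 5, with 153 CPM (36.2 to 277) against 24.8 CPM, and fell short in library 1 alone. Dcn had 1263 CPM (691 to 3329) and was 2-fold higher in 3 of 5. These classes held few cells, and their values varied by library.

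Between the fibroblast-like and VSMC-like classes, the share of cells with a UMI followed the median level except for Ogn and Bgn. Ogn was found in 76.8% of fibroblast-like and 85.1% of VSMC-like cells, though its median level was higher in fibroblast-like cells. Bgn was found in 99.6% of VSMC-like and 98.8% of fibroblast-like cells, beside 37.4% of leukocyte-like cells. Dcn was found in 99.1% of fibroblast-like, 46.1% of VSMC-like and 53.4% of leukocyte-like cells. Fmod, Podn and Vcan were found in 24.3%, 32.9% and 46.2% of fibroblast-like cells, and in 2.03%, 1.58% and 3.38% of leukocyte-like cells. Acan was found in 4.48% of VSMC-like and 0.456% of fibroblast-like cells, and in 0 of 444 leukocyte-like cells, which allows a share of cells with a UMI of up to 0.676% (3 counts of the total). Cells with at least 3000 UMIs were also thinned to 3000 UMIs each, which left out 551 VSMC-like and 1232 fibroblast-like cells. In the thinned cells, the shares for Acan were 2.19% (95% exact binomial interval 1.91% to 2.50%) and 0.210% (0.137% to 0.308%), where the intervals cover counting error only. The median cell had 7214 UMIs in the VSMC-like, 6112 in the fibroblast-like and 5622 in the leukocyte-like class.

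The fibroblast-like cells formed 12 subclusters, numbered F0 to F11 by size and called by their leading genes. F9 (Myh11, Kcnmb1 and Cnn1, 498 cells, 34.9% marked as doublets) and F11 (53 cells) were led by markers of another class and are left out of the levels below. F1, F2 and F4 met the adventitial marker list (Ly6a, Spon2, Ccl11 and Pi16), F0 and F8 the list of Hhip, Dio2 and Cpxm2, and F6 the cartilage-like list (Chad, Comp, Cilp2 and Sox9). F3 held markers of that last list too, but its leading genes (Cytl1, Prss12, Cst6 and Pthlh) were not among them, and it is called by these. F7 met the list of Coch, Wif1 and Prss35, although its leading genes were Cd74, H2-Eb1, H2-Aa and H2-Ab1 of antigen presentation. The summed leukocyte markers of F7 were 12.3 CPM, beside 8.54 to 19.1 CPM in the other fibroblast subclusters kept. The members had no part in the clustering, yet a subcluster against the rest of its class is a description, and cells clustered jointly over the libraries favour a direction shared by all of them.

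For 5 of 10 members, the subcluster with the highest level was at least 2-fold above the other fibroblast-like cells in every library with 20 of its cells, beside 8.15% of all genes with at least 10 CPM in a subcluster. The same 5 members met it without F9 and F11, where the background was 6.7%. Fmod, Prelp and Acan were highest in F6, Podn in F0 and Vcan in F7. Acan, with a median of 7.22 CPM in F6, was below that minimum, and 4 members met the call above it. When log-normalized counts were clustered without integration, into fewer and larger subclusters, the call was met by Podn and Acan alone. Without library 4 it was met by 4 members, Podn being lost.

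**Figure D2:**
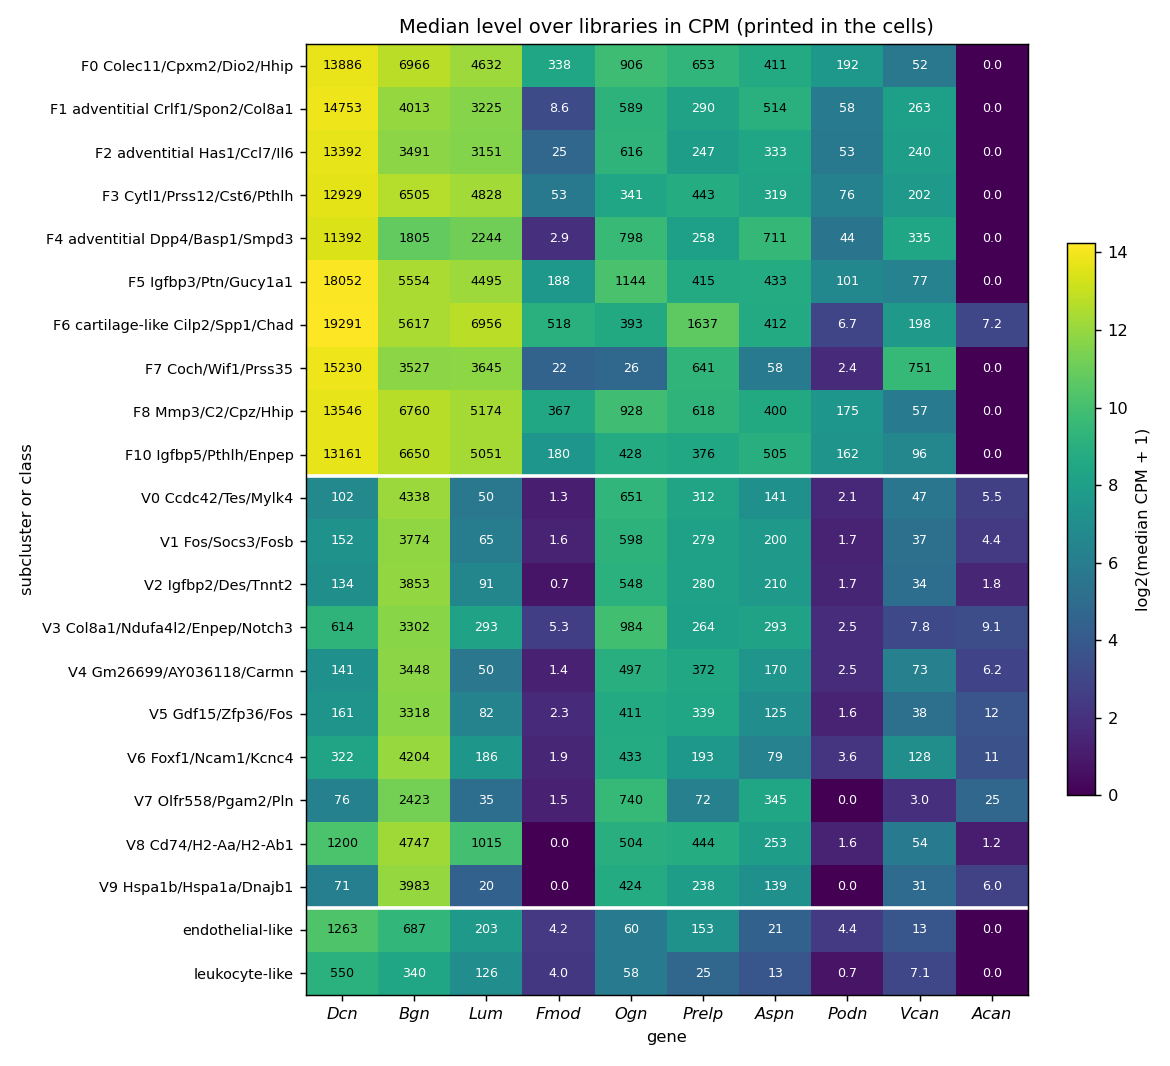
Median level over libraries of the 10 transcripts in 10 fibroblast subclusters (F), 10 VSMC subclusters (V) and 2 further classes. The colour is log2(median CPM + 1), and the number in each cell is the median CPM; Dcn and Lum separate the F and V blocks, and Vcan is highest in F7 while Ogn and Podn are lowest there among the F subclusters.

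F6 (Cilp2, Kera, Spp1 and Chad, 815 cells) had the highest Prelp, 1603, 1281, 1880, 1819, 1672 and 979 CPM in libraries 1 to 6. Every library of F6 lay above every library of F0, the next subcluster in order (653 CPM, 423 to 707), and the median fold over the other fibroblast-like cells was 3.60. Fmod had 840, 328, 509, 314, 528 and 681 CPM in F6, a median fold of 2.87, but F8 followed closely at 367 CPM (227 to 977) and F0 at 338 CPM. F0 too was at least 2-fold above the other fibroblast-like cells in 6 of 6 libraries, with a median fold of 2.81. It held 50.8% of the Fmod UMIs of fibroblast-like cells in 26.6% of the cells, and F6 held 19.7% in 5.99%. Fmod was near background in the adventitial subclusters, with 8.58 CPM in F1 and 2.88 CPM in F4, beside 3.98 CPM in leukocyte-like cells. F6 also had the highest medians of Dcn (19291 CPM, 11434 to 27936) and Lum (6956 CPM, 3894 to 7831), whose ranges overlapped with those of F5 and F8.

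Acan in fibroblast-like cells lay mostly in F6, where 92 of 115 UMIs (80.0%) were found in 5.99% of the cells. Another 19 UMIs lay in F9, the subcluster with VSMC transcripts, and the other 9 subclusters kept held 4 UMIs, 0.0497 CPM with an exact Poisson interval of 0.0135 to 0.127 CPM for counting error. F6 had 64.8, 3.88, 6.64, 6.89, 7.54 and 40.3 CPM in libraries 1 to 6, so libraries 1 and 6 were well above the others.

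Podn was highest in F0 (Colec11, Cpxm2, Dio2 and Hhip, 3614 cells), with 167, 120, 186, 199, 251 and 250.1 CPM, a median fold of 3.13 over the rest. F8, which met the same marker list, was close at 175 CPM (143 to 306) and F10 had 162 CPM, and F0 exceeded F8 in 3 of 6 libraries. F6 (6.72 CPM) and F7 (2.43 CPM) held little Podn. F0 and F8 were also the highest in Bgn, at 6966 and 6760 CPM, whereas F4 (Dpp4, Basp1 and Smpd3) had 1805 CPM, with ranges that did not overlap.

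Vcan had its highest level in F7 (Coch, Wif1 and Prss35, 804 cells), with 762, 751, 639, 618 and 796 CPM in libraries 2 to 6. Library 1 had 18 cells of F7 and gave no value. F4 came second with 335 CPM (262 to 424) and did not overlap with F7, and the lowest level was 51.9 CPM (17.8 to 78.7) in F0. F7 held 26.0% of the Vcan UMIs of fibroblast-like cells and 5.91% of the cells.

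F7 stood apart for low transcripts as well. Ogn had 24.4, 24.8, 42.5, 92.0 and 26.2 CPM there, and 341 to 1144 CPM as medians in the other 9 subclusters. The leukocyte-like median of Ogn was 58.3 CPM. Aspn had 57.7 CPM (8.39 to 135) in F7, and its other medians were 319 CPM or more. The median log2 ratios of Fmod and Podn in F7 over the other fibroblast-like cells were -2.01 and -5.40, and both genes were at least 2-fold lower in all 5 libraries. In contrast, Prelp (641 CPM), Dcn (15230 CPM) and Lum (3645 CPM) in F7 were within 2-fold of the rest in all 5 libraries. Ogn peaked in F5 (Igfbp3, Ptn and Gucy1a1) at 1144 CPM (1085 to 1412) and Aspn in F4 at 711 CPM (449 to 912).

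**Figure D3:**
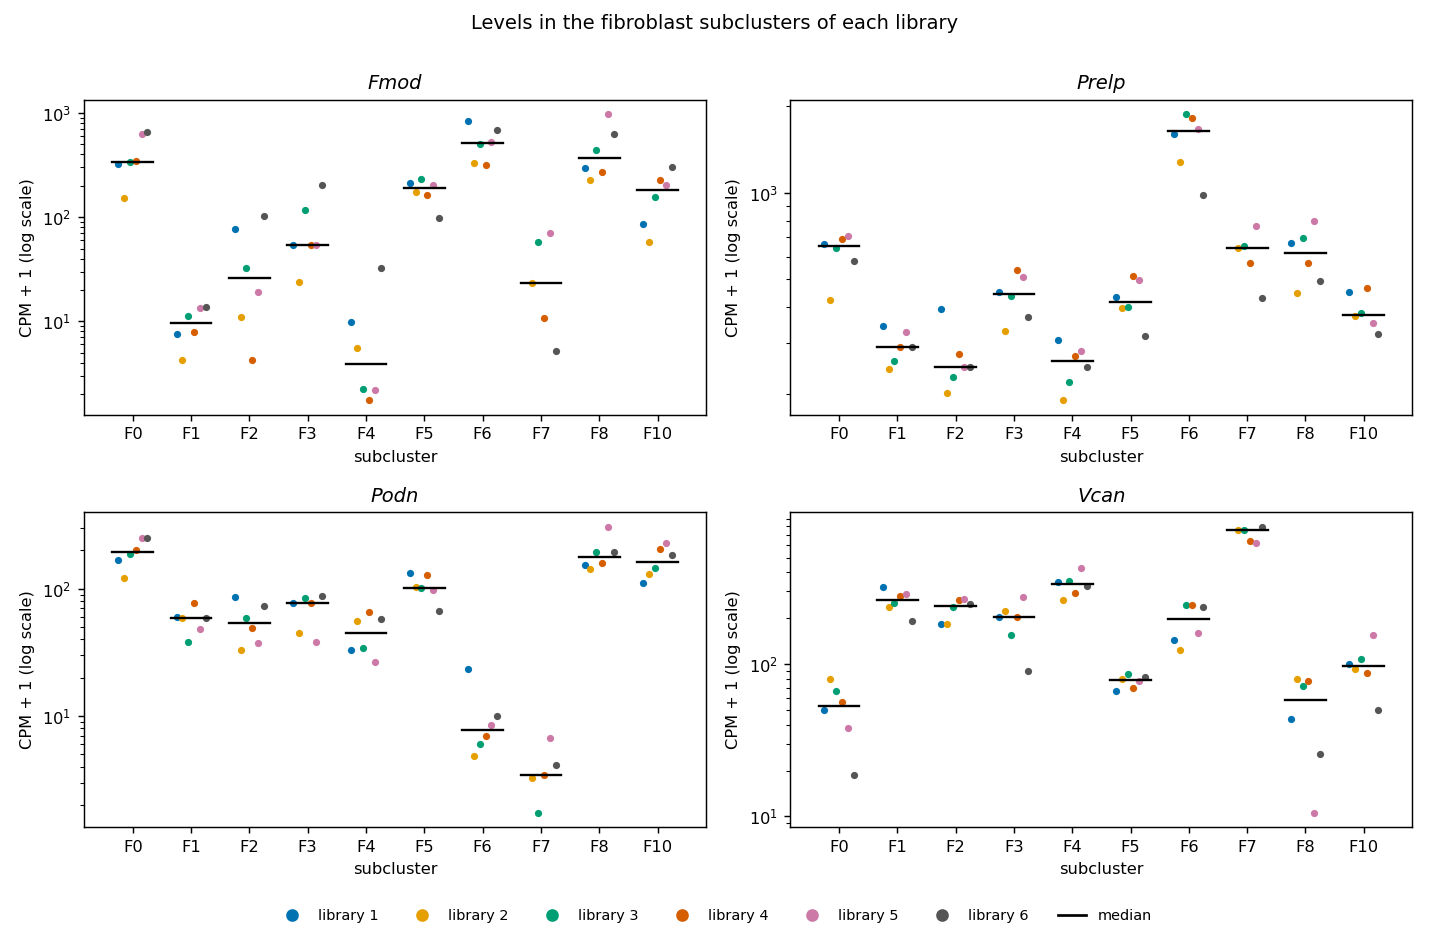
Levels of Fmod, Prelp, Podn and Vcan in 10 fibroblast subclusters. The vertical axes are CPM + 1 on a log scale, each point is a library with at least 20 cells and each line the median; Prelp in F6 and Vcan in F7 have no overlap with any other subcluster, and Podn is lowest in F6 and F7.

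The VSMC-like cells also formed 12 subclusters, V0 to V11. V1 was led by Fos, V2 by Igfbp2 and V9 by Hspa1b, and V4 and V5 had low UMI counts (0.587 and 0.540 of the median of their libraries). V10 (Cygb, Abca8a and Clec3b, 167 cells) was led by fibroblast transcripts, had 78.4% of cells marked as doublets and gave values in libraries 3 and 4 only, and V11 (17 cells) was led by cardiomyocyte transcripts. With all subclusters, 5 of 10 members had a top subcluster at least 2-fold above the rest in every library with a value, beside 7.48% of all genes. For 4 of them (Dcn, Lum, Fmod and Podn) that subcluster was V10. Without V10 and V11, the members were Vcan and Acan, 2 of 10, beside 3.57% of all genes. Leaving out library 3 or library 4, with all subclusters kept, gave the same 2 members. Either omission left V10 with 1 library, too few for a top subcluster under the rule used, so it is not a separate check. With log-normalized counts clustered without integration, the call was met by Dcn, Lum, Fmod and Podn, and Vcan and Acan lost it. All 4 were called in a subcluster of 571 cells led by Cygb, Abca8a and Clec3b, as V10 was, which was not left out there.

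Vcan was highest in V6 (Foxf1, Ncam1 and Kcnc4 by its marker list, Ccl21a, Rgs5 and Prrx2 as leading genes, 744 cells), with 133, 136, 123, 176, 61.2 and 114 CPM, a median fold of 3.28 over the other VSMC-like cells without V10 and V11. V6 exceeded the second subcluster, V4, in 6 of 6 libraries, although their ranges overlapped. Vcan was lowest in V7 (Olfr558, Pgam2 and Pln, 546 cells) at 3.36, 1.55, 20.6, 2.26, 5.83 and 2.61 CPM, and in V3 (Col8a1, Ndufa4l2, Enpep and Notch3, 883 cells) at 7.85 CPM (3.18 to 27.7). The leukocyte-like median was 7.10 CPM. The summed fibroblast markers were 1172 CPM in V6, 97.7 CPM in V7 and 418 CPM in V3, and their part in these levels was not tested.

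Acan was highest in V7, at 30.3, 20.2, 14.7, 13.6, 33.0 and 107 CPM, a median fold of 5.24 over the other VSMC-like cells. V7 held 22.9% of the Acan UMIs and 5.32% of the cells of the class. It exceeded V5, the next in order (12.4 CPM, 4.61 to 42.7), in 6 of 6 libraries. Library 6 was the highest in V7 and also in V6 (42.3 CPM), where libraries 2 and 4 had no UMI of Acan.

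V7 was low in further members. Prelp had 114, 63.7, 79.4, 93.8, 53.5 and 52.3 CPM in V7, and medians of 193 to 444 CPM in the other 9 subclusters. Bgn was lowest there too, at 2423 CPM (1777 to 4143), as were Dcn and Lum apart from V9, at 75.8 and 34.9 CPM. Aspn had its highest VSMC level in V7, 345 CPM (229 to 356), followed by V3 at 293 CPM, and the order was V3 above V7 in 4 of 6 libraries. Ogn was highest in V3 at 984 CPM (710 to 1250) and exceeded V7 (740 CPM) in 6 of 6 libraries. V3 and V7 met the same marker list (Pln, Pgam2, Olfr558, Enpep and Notch3).

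V8 (Cd74, H2-Aa and H2-Ab1, 381 cells) had Dcn at 660, 352, 1200, 2103 and 1795 CPM and Lum at 444, 222, 1201, 1612 and 1015 CPM in libraries 1 to 5. Library 6 had 9 cells of V8. Over the other VSMC-like cells, the median folds were 2.68 for Dcn and 4.83 for Lum, and both reached 2-fold in libraries 1, 3, 4 and 5 but not in library 2. With V10 and V11 left out the median folds were 5.71 and 8.64. V3 was next in order, with 614 CPM of Dcn and 293 CPM of Lum. It was above the other VSMC-like cells in 6 of 6 libraries for both genes, and V8 exceeded it in 3 of 5 libraries for Dcn and 4 of 5 for Lum, with overlapping ranges. In thinned cells, as described above, Dcn was found in 44.2% of V8 and 44.0% of V3 cells. Lum was found in 35.3% and 29.8% of them. Doublet marks covered 0.787% of V8. Its summed fibroblast markers were 518 CPM, beside 437 to 571 CPM in V0, V1 and V2, and its Fmod and Podn medians were 0 and 1.63 CPM. When cells marked as doublets were removed, Lum in V8 was at least 2-fold above the rest in every library with a value. The source of the Dcn and Lum transcripts in V8 was not tested.

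**Figure D4:**
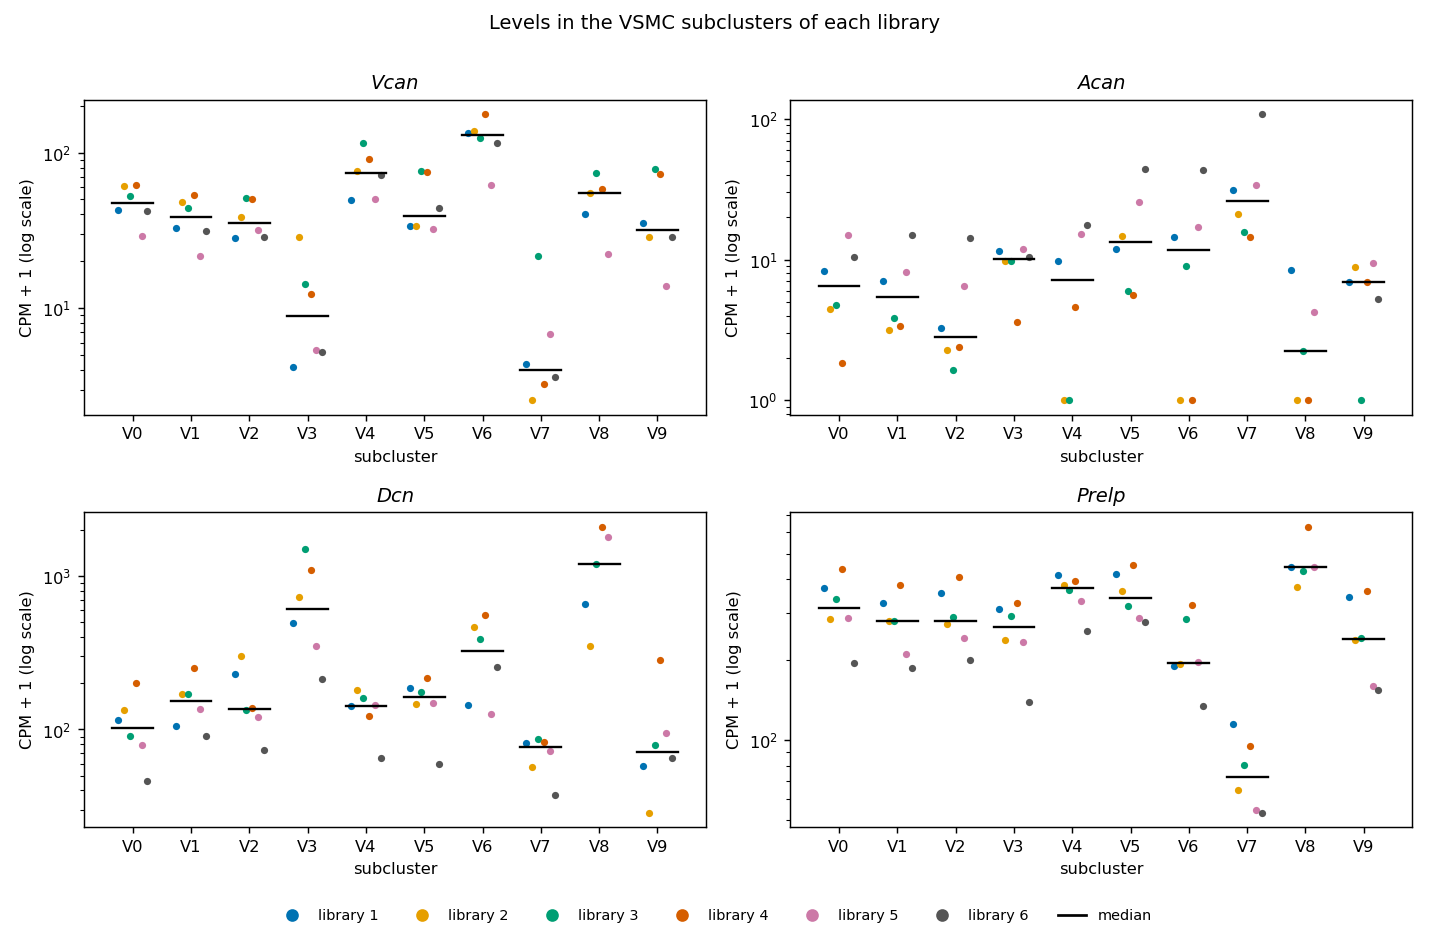
Levels of Vcan, Acan, Dcn and Prelp in 10 VSMC subclusters. The vertical axes are CPM + 1 on a log scale, each point is a library with at least 20 cells and each line the median; Vcan is lowest and Acan highest in V7, Dcn has its highest median in V8, which overlaps with V3, and Prelp is lowest in V7.

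The levels of the members were set side by side over 22 cell groups (10 fibroblast and 10 VSMC subclusters and 2 classes), by Pearson's r of log2(median CPM + 1). The groups share libraries, so r is a description. Dcn and Lum, neighbours on chromosome 10, had r of 0.98 and were each the gene most like the other among 11081 genes, with Fbln1, an extracellular matrix protein, next for both. Podn had r of 0.83 with each of them. Bgn was nearest to Prelp (0.79) among the members and had r of 0.28 with Dcn. Ogn and Aspn had r of 0.81. Omd, the related gene between them, had r of 0.84 with Ogn and 0.89 with Aspn, and was among the 3 genes most like each. Fmod and Prelp, neighbours on chromosome 1, had r of 0.54. Vcan and Acan had r of -0.43, and Acan had r of -0.74 with Dcn.

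**Figure D5:**
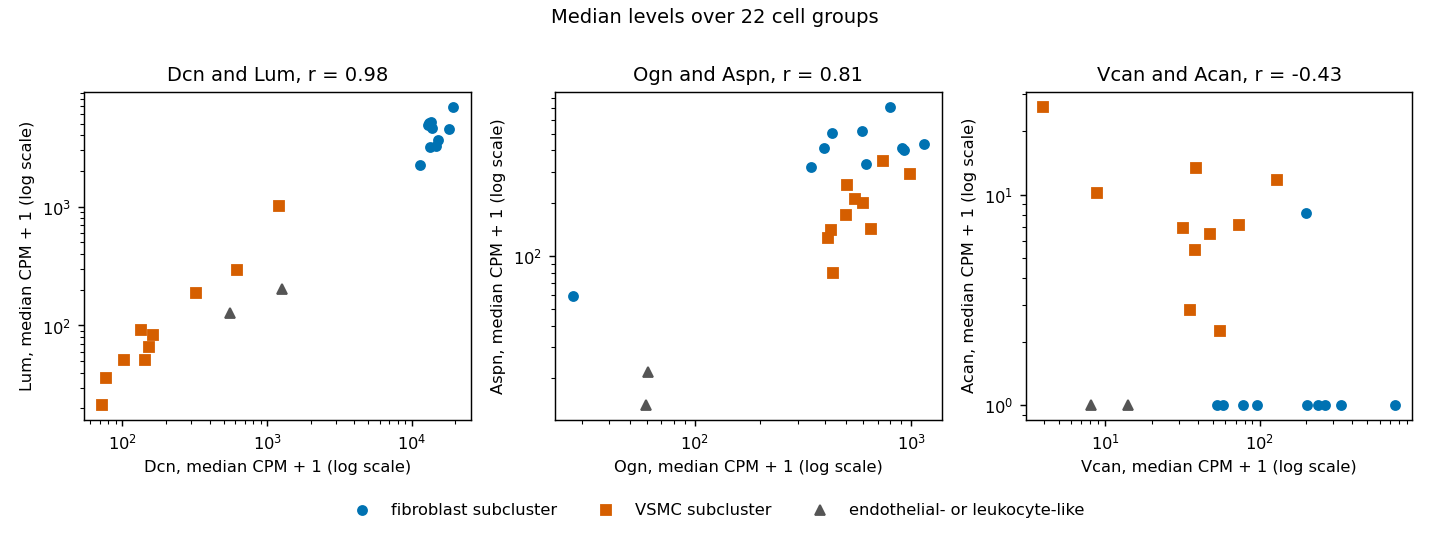
Median levels of Dcn and Lum, Ogn and Aspn, and Vcan and Acan in 22 cell groups. Both axes of each panel are median CPM + 1 on a log scale and each point is a subcluster or class; Dcn and Lum fall on a line (r = 0.98), and the fibroblast subcluster with low Ogn and Aspn is F7.

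Outside the list, the genes most like each member were as follows. For Fmod they were Col11a1, a fibrillar collagen chain (r of 0.92), Slc1a3 (0.92) and Comp, a cartilage matrix protein (0.91). For Podn they were F3, which encodes tissue factor (0.97), Ctsl and Shisa3. Bgn was most like Casc4, Maged1 and Echdc2, and Prelp most like Aff2, Ace and Dkk3. Ogn was most like Vgll3 (0.88) and Mn1, and Aspn most like Scrn1 (0.89) and Sdc2, a cell surface proteoglycan. For Vcan they were Dap (0.91), Fasn and 6030419C18Rik, and for Acan Dgkg (0.90), Cep63 and Slc38a11.

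The 58 related genes encode other leucine-rich proteoglycans, other lecticans and link proteins, enzymes that build the sulfated chains, and proteases and enhancers that process the core proteins or collagen. Of them, 33 had at least 10 CPM in fibroblast-like or VSMC-like cells. In every library, 10 of the 33 were at least 2-fold higher in fibroblast-like and 2 at least 2-fold higher in VSMC-like cells, beside 10.3% and 7.04% of all genes. The median log2 ratio of fibroblast-like over VSMC-like cells was 2.28 for 6 other leucine-rich proteoglycans, 2.01 for 7 proteases and enhancers and 0.44 for 20 enzymes of chain synthesis, beside 1.95 for the 9 members and 0.02 for all genes.

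Among related genes with at least 50 CPM, Chad, a leucine-rich protein of cartilage, had 74.9 CPM in fibroblast-like and 0.857 CPM in VSMC-like cells, a median log2 ratio of 6.74. Epyc, epiphycan, a neighbour of Dcn and Lum on chromosome 10, had 97.5 and 0.857 CPM, a median log2 ratio of 6.66. Pcolce, an enhancer of procollagen processing, had 1074 and 50.4 CPM (4.43). In the other direction stood Optc, opticin, with 4.16 CPM in fibroblast-like and 166 CPM (109 to 208) in VSMC-like cells, a median log2 ratio of -5.55 and the groups did not overlap. Optc lies 2305 bp from Prelp on the same strand, and their r over the cell groups was -0.17. Chsy1, a chondroitin synthase (-0.14), and Ecm2 (0.05), which neighbours Aspn, came next in order, and both differed by less than 2-fold in every library. The other related gene called in VSMC-like cells, named after its value was seen, was the protease Adamts8, with 5.09 CPM in fibroblast-like and 15.4 CPM in VSMC-like cells (-1.56).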

How the data were processed

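Live, nucleated cells from the aortic root and ascending aorta were sorted and profiled with 10x 3' v3 chemistry, 1 library per mouse. Per the labels and the study's methods, reads were aligned to mm10 with Cell Ranger. The submitters' notes name version 6, and the header of the matrix names 4.0.0. The deposited file is a matrix of UMI counts that the authors aggregated over 6 libraries, and the counts are whole numbers, and 0 columns of other samples were found.

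Cells with 1000 to 5000 genes, 1500 to 25000 UMIs and under 20% mitochondrial UMIs were kept, which are the limits of the study's methods. They were normalized with sctransform 0.4.2 and integrated over libraries (reciprocal PCA) and clustered with Seurat 5.3.0 in R 4.3.3 (3000 variable genes, 30 principal components, resolution 0.25, and 0.3 for subclusters), with the 10 members and 58 related genes left out of the variable genes. A cluster was named from its markers where at least 3 were detected in 10% of its cells and its leading genes did not go against the name. Doublets were marked with scrublet through scanpy 1.11.5 and kept in the main values. Where it marked under 0.5% of a library, the highest-scoring 5% were marked. A subcluster led by fibroblast genes had most of its cells marked.

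Counts were summed per class or subcluster and library in Python 3.11 (numpy 2.4.6, scipy 1.17.1), for sums of at least 20 cells, and divided by the total to give CPM. Ratios were taken within a library with a prior of 0.5 UMI. A call means a ratio of at least 2 in every library with a value. Shares of all genes called were taken over genes with at least 10 CPM in either group. In counts simulated for the fibroblast-like and VSMC-like contrast, the calls were checked before use. No groups of mice were tested against each other, since barcode numbers were not paired with mice, and Dixon's ratio served only to flag libraries.

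All 10 members are described. Of the related genes, those with at least 50 CPM and the 3 largest ratios in each direction are named, and for each member the 3 genes with the most similar levels. The members and lists were chosen with earlier results of these data known. Alternatives were a log normalization without integration, only cells with at least 3000 UMIs, another resolution, members kept in the variable genes, doublets removed, per-cell means, 1 sum over libraries, a fold of 1.5, no CPM minimum, leukocyte levels subtracted and each library left out. Intervals are exact Poisson or binomial ones and cover counting error only.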

Additional observations from a re-analysis of the deposited data

Results flagged for a closer look

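Of 50 sets of library values examined, 3 had a library far from the others of its set, where chance flags about 1 set in 20. Acan in V7, the Olfr558/Pgam2/Pln subcluster of VSMCs, had 107 CPM in library 6, the highest of 6 libraries, and the gap to the next library was 0.792 of the whole range. Without the value of library 6, Acan in V7 ran from 13.6 to 33.0 CPM. Podn in V6, the Foxf1/Ncam1/Kcnc4 subcluster, had 17.6 CPM in library 4, with a gap of 0.784 of the range over 6 libraries. Prelp in V8, the Cd74/H2-Aa/H2-Ab1 subcluster, had 629 CPM in library 4, with a gap of 0.719 of the range over 5 libraries. Library 4 also had the highest Dcn, Lum, Fmod, Podn, Prelp, Aspn and Vcan of all libraries in VSMC-like cells as a whole. Of the 167 cells of V10, the VSMC subcluster led by fibroblast transcripts, 87 were in library 4. Whether these libraries came from CTL or LDS mice cannot be told, and the cause was not tested.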

How the results depend on the processing

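The same 5 members were at least 2-fold higher in fibroblast-like than in VSMC-like cells in every alternative, Prelp was added at a fold of 1.5 and Aspn with 1 sum over libraries. The opposite call went from 0 members to 1, Acan, with log-normalized counts, a fold of 1.5, per-cell means, 1 sum, or without the subclusters led by another class (chosen after seeing the data), and ranged from 0 to 1 with each library left out (1 without library 1). Endothelial-like over leukocyte-like cells went from 0 to 5 members with 1 sum over libraries, and from 0 to 1 (Prelp, without library 1) when libraries were left out. The fibroblast subcluster count went from 5 to 2 with log-normalized counts (Podn and Acan) and ranged from 4 (Podn lost without library 4) to 5 with a library left out. With 1 sum over libraries it stayed at 5, but Fmod and Podn were highest in F8. Against leukocyte-like cells, the VSMC count went from 6 to 5 with log-normalized counts and with cells of at least 3000 UMIs (Vcan lost). With a library left out, the VSMC subcluster count ranged from 2 (without library 3 or 4, which leaves V10 with 1 library) to 6. It was 7 at a fold of 1.5, 3 without marked doublets (Lum in V8, Vcan in V6 and Acan in V7), and 2 without the subclusters led by another class. With log-normalized counts it was 4, all in a subcluster with the leading genes of V10, and Vcan and Acan were not among them. Without a minimum of 10 CPM, the related genes went from 10 to 18 in fibroblast-like and from 2 to 4 in VSMC-like cells. Of the alternative values of single members' log2 ratios, 146 moved by less than the spread over libraries and none reversed. The 4 others were Fmod at 5.29 with log-normalized counts, and Dcn at 18.3, Lum at 5.88 and Fmod at 7.68 after the leukocyte-like level was subtracted, where the VSMC level of Dcn fell to 0 in some libraries. The cause was not tested for the other shifts. Sparse transcripts such as Acan and, in VSMC-like cells, Fmod and Podn were limited by depth. No paired analysis was possible because the barcode numbers were not matched to the mice and their replicate numbers.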
